A study of Homo sapiens with 6 samples.

Results

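IFITM1, IFITM2, IFITM3, IFITM10, BST2 and LY6E encode small membrane proteins, and most of them are known to limit the entry or the release of enveloped viruses. These 6 genes were taken by symbol from the tables of read counts, and all 6 were found among the 26485 symbols listed. They were compared between libraries of AF22, an established human neural stem cell line of neuroepithelial character, made from induced pluripotent stem cells. Of the 6 libraries, 3 came from AF22 cells labelled as a COMMD3/COMMD3-BMI1 knockdown. The other 3 came from AF22 cells labelled as wild type with shControl, a control short hairpin RNA. COMMD3 encodes a subunit of the Commander complex, which sorts membrane proteins at endosomes, and COMMD3-BMI1 is a readthrough gene that joins exons of COMMD3 to BMI1. The labels do not describe the knockdown reagent, and every library came from 1 cell line.

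IFITM proteins (interferon-induced transmembrane proteins) carry a CD225 domain, sit in the plasma membrane and in endosomes, and hinder the fusion of viral with cellular membranes. BST2, also called tetherin, is anchored in the membrane at both ends and holds budding virus particles on the cell surface. LY6E is a protein of the LY6/uPAR family held in the membrane by a glycosylphosphatidylinositol (GPI) anchor, and it is known to interfere with the entry of coronaviruses. IFITM1, IFITM2, IFITM3, BST2 and LY6E are known as interferon-stimulated genes, while IFITM10 is a more distant relative whose function is little known. IFITM1, IFITM2 and IFITM3 are also known to be expressed without interferon in stem cells. After interferon binds its receptor, a transcription factor complex that contains IRF9 binds a DNA element, the ISRE, in the promoters of such genes.

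The RefSeq promoters (GRCh38.p14) of IFITM1, IFITM3 and BST2 are shown because these genes rose in knockdown cells and are known as interferon-stimulated genes, and the letters searched are those of the ISRE core. Each runs from 250 bases before the gene's start to 20 bases after it, in the direction of transcription, and capitals mark every match to GAAANNGAAA. IFITM1 lies at chr11:313790-314059 on the plus strand, IFITM3 at chr11:320841-321110 on the minus strand and BST2 at chr19:17405611-17405880 on the minus strand.
IFITM1: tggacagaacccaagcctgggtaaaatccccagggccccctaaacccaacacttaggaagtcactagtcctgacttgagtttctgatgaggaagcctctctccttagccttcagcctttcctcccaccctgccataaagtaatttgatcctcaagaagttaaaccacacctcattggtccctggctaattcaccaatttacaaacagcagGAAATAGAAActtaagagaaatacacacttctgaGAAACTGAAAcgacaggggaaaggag
IFITM3: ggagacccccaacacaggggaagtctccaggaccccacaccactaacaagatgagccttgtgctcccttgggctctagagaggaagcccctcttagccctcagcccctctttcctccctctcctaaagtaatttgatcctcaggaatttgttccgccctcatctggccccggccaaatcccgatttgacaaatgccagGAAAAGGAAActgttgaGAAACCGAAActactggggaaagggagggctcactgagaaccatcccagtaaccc
BST2: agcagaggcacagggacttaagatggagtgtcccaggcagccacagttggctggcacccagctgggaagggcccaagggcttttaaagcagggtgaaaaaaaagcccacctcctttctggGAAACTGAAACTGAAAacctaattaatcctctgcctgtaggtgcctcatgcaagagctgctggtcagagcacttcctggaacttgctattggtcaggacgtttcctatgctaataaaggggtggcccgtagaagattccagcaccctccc

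Each of these promoters held 2 matches, all on the strand shown. In IFITM1 the matches began 40 and 6 bases before the start, and the second ran across it. In IFITM3 they began 52 and 35 bases before the start. In BST2 they began 130 and 124 bases before the start and overlapped by 4 letters, which gives 1 unbroken block of capitals. With both strands searched, 3.3% of 35116 RefSeq promoters of the same length held at least 1 match and 0.245% held 2 or more. These shares are a description and no test of the 3 genes. Promoters were found for 3 of the 6 genes, all of which rose, so no promoter of a member that did not rise stands beside them, and those of IFITM2, IFITM10 and LY6E are not shown. The promoter of BISPR, a noncoding gene beside BST2 that also rose, was searched in the same way and held 0 matches. BISPR begins 38 bases from the BST2 start on the other strand, between that start and the block of capitals of BST2. That block thus lies past the BISPR start, beyond the window searched for BISPR, which ends 20 bases after its start. The 0 for BISPR therefore does not cover the block. A match describes letters in the window searched and does not show that a factor bound there.

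The 6 libraries held between 7294687 and 11579849 counts. COMMD3 had 12.9, 11.3 and 10.5 counts per 1000000 counts of the library (CPM) in the knockdown libraries, against 31.7, 29.7 and 27.6 CPM in the control libraries. BMI1 had a log2 fold change of -0.07 (adjusted p = 0.206 by edgeR), and COMMD3-BMI1 was listed at 0 in all 6 libraries. The readthrough gene shares exons with COMMD3 and BMI1, and how shared reads were counted is not given. Its 0 therefore does not show that the readthrough transcript was absent. The list of 12 neural stem cell markers summed to 2642 to 2761 CPM in knockdown and 2686 to 2858 CPM in control, with 1 of 10 tested markers higher and 4 lower, or 3 called in all without control replicate 2. Of 14 leukocyte and microglia markers, 7 had no counts in any library, and the list summed to 0.698 to 0.926 CPM in knockdown and 1.26 to 1.60 CPM in control, so these defining markers were near 0. A list of 10 endothelial markers summed to 159 to 179 CPM in knockdown and 218 to 225 CPM in control. Of 8 tested, 4 were lower and none higher, among them CDH5 and TIE1 with log2 fold changes of -0.96 and -0.95 (adjusted p = 1.64e-06 and 2.32e-08 by edgeR). Markers of pluripotent cells summed to 635 to 693 CPM in knockdown and 531 to 536 CPM in control, with LIN28A higher and POU5F1 lower among 3 tested. Markers of fibroblasts and mesenchymal cells summed to 1016 to 1051 CPM in knockdown and 1039 to 1094 CPM in control, most of it COL3A1, which did not pass and had a mean of 776 CPM in knockdown and 747 CPM in control. Of 7 tested, 1 was higher (COL1A1, log2 fold change 0.27, adjusted p = 0.00224 by edgeR) and 3 were lower, led by PDGFRB and THY1 with log2 fold changes of -0.81 and -0.42 (adjusted p = 7.68e-12 and 6.14e-08 by edgeR). For comparison, 15.3% of all tested genes were called higher and 18.1% lower. The part of these marker lists in the results below was not tested.

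Of the 6 genes, all of which passed the filter on low counts, 5 were higher in knockdown, none was lower, and IFITM2 did not pass. A gene was called at a p under 0.05 from the quasi-likelihood test of edgeR, with Benjamini-Hochberg adjustment across every gene tested. Over all 13632 tested genes, 15.3% were called higher and 18.1% lower, or 33.3% in either direction, and the median log2 fold change was 0.00. For 4 of the 6 genes the 2 groups of libraries did not overlap, against 44.3% of all tested genes. The median over the 6 genes was 1.45. The sizes were far apart, from 54.9-fold for BST2 to 1.68-fold for IFITM3 among those called. BST2, LY6E, IFITM1 and IFITM3 were also called against a 1.5-fold change (edgeR glmTreat, adjusted p under 0.05), a threshold that 0.822% of all tested genes passed upward. The counts come from whole cultures, so a rise in every cell and a larger rise in part of the cells cannot be told apart.

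**Figure D1:**
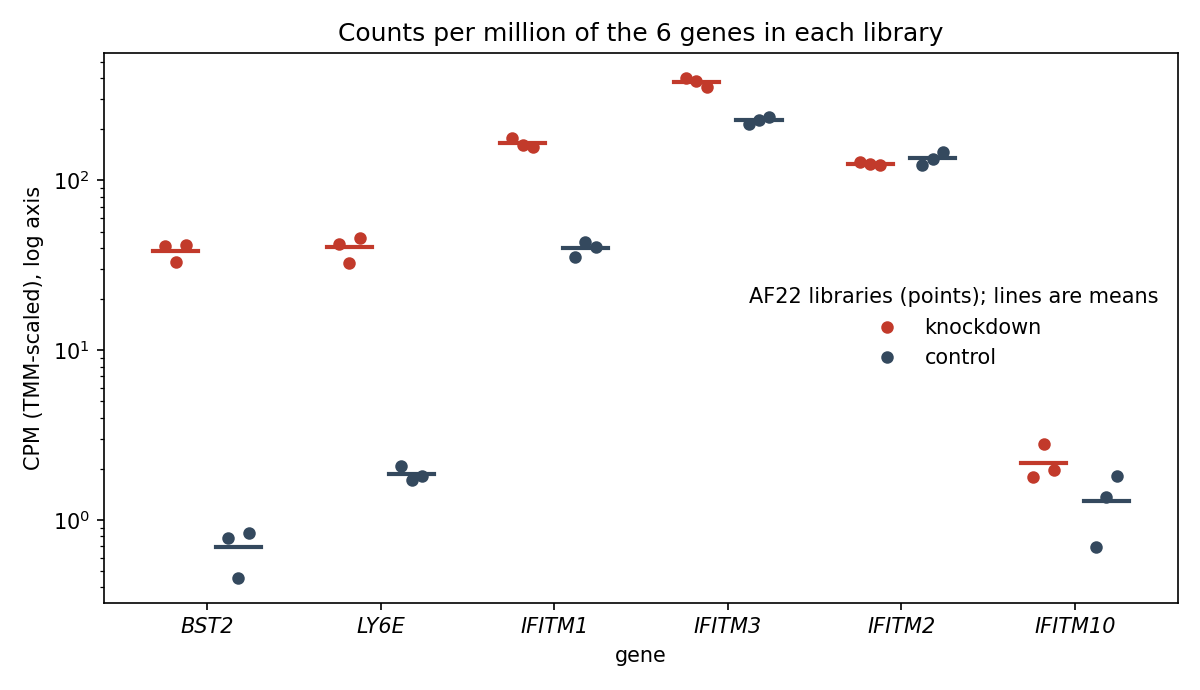
TMM-scaled CPM on a log axis for each of the 6 genes, with 1 point per library, knockdown left of control, and a line at each mean. BST2 and LY6E lie more than 10 times higher in knockdown than in control, IFITM2 overlaps between the groups, and IFITM10 is low in all libraries.

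BST2 had the largest change among the 6 genes and ranked at place 10 of all tested genes by log2 fold change. It had 41.0, 33.2 and 41.5 CPM in the knockdown libraries, against 0.777, 0.457 and 0.841 CPM in the control libraries. In counts, this was 392, 285 and 403 in knockdown against 9, 4 and 6 in control. The groups did not overlap, and knockdown libraries differed among themselves far less than the groups did. On the log2 scale the difference was 5.78 (SE 0.183, adjusted p = 6.43e-22 by edgeR), with a 95% interval of 5.40 to 6.15. A library with no counts would allow 0.259 to 0.42 CPM, counting 3 counts as the floor, so the control level of BST2 lay above that floor in each library. BST2 (ENSG00000130303) occupies bases 17402939 to 17405648 of GRCh38 chromosome 19 on the minus strand, in 5 exons, and no exon base is covered by another gene in GENCODE v29.

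LY6E rose 21.3-fold. It had 42.3, 32.8 and 45.9 CPM in the knockdown libraries, against 2.07, 1.71 and 1.82 CPM in the control libraries. All knockdown libraries stood well above all control libraries, with knockdown replicate 2 the lowest of its group, as for BST2. This is a log2 fold change of 4.41 (SE 0.16; adjusted p = 3.12e-20 by edgeR), rank 24 among tested genes. LY6E (ENSG00000160932) occupies bases 143017982 to 143023832 of chromosome 8 on the plus strand, and 3.33% of its exon bases are also covered by LY6E-DT on the other strand.

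**Figure D2:**
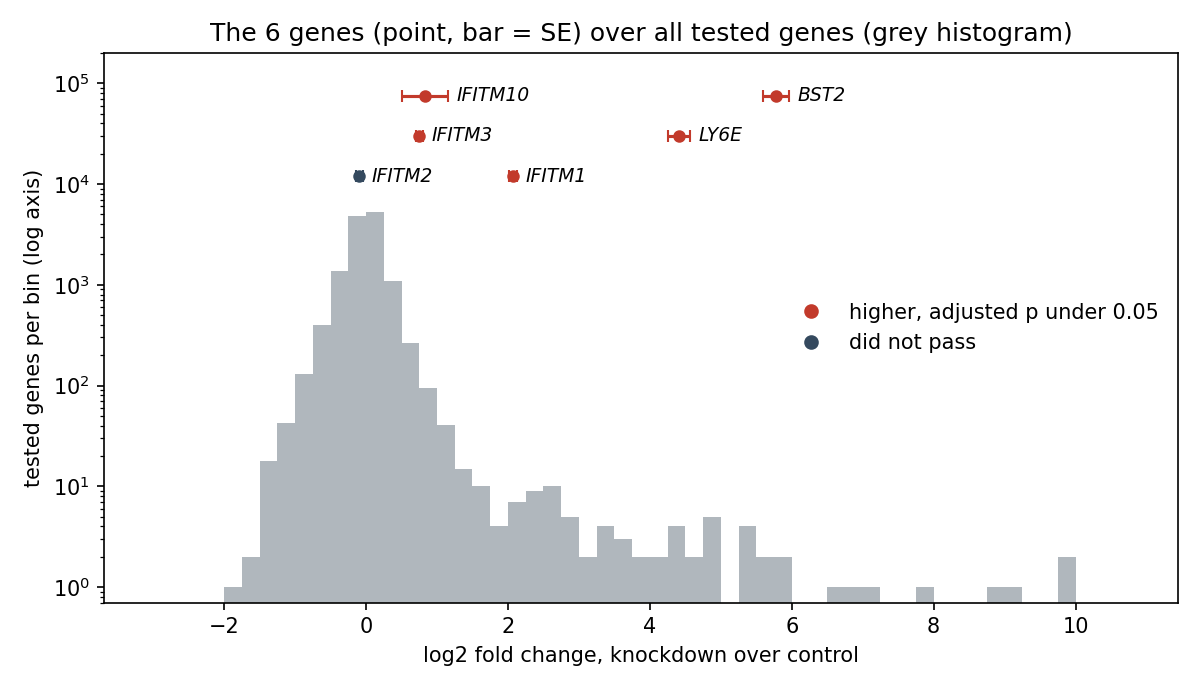
Log2 fold change of the 6 genes (points, bars are SE; their height on the page has no meaning) over the histogram of all 13632 tested genes with a log count axis. IFITM2 sits in the middle of the histogram, IFITM3 and IFITM10 on its upper flank, and BST2 and LY6E in the sparse upper tail.

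IFITM1 rose 4.20-fold. It had 178, 161 and 158 CPM in the knockdown libraries, against 35.5, 43.2 and 40.6 CPM in the control libraries. The groups did not overlap. The difference was 2.07 on the log2 scale (SE 0.0602, adjusted p = 6.76e-23 by edgeR), and 0.513% of tested genes had a value at least as high.

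IFITM3, the family member known for restricting influenza virus in endosomes, rose by a smaller factor from a higher level. It had 401, 383 and 354 CPM in the knockdown libraries, against 216, 226 and 236 CPM in the control libraries. The groups were apart here too, although the factor was 1.68. The log2 fold change was 0.75 (SE 0.0483, adjusted p = 1.20e-13 by edgeR), with a 95% interval of 0.65 to 0.85. The interval for IFITM1 was 1.95 to 2.19, and the intervals did not meet.

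IFITM2, which like IFITM3 is found in endosomes, did not pass the test. It had 129, 125 and 123 CPM in the knockdown libraries, against 124, 134 and 147 CPM in the control libraries. Control replicate 1 lay among the knockdown libraries, and the other control libraries lay above them. The log2 fold change was -0.10 (SE 0.051, adjusted p = 0.145 by edgeR), with a 95% interval of -0.20 to 0.01, so a rise of the size seen for IFITM3 lay outside the interval. Without control replicate 1 the log2 fold change was -0.16 and passed as lower (adjusted p = 0.0172 by edgeR; 0.0172 to 1 over all alternatives).

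IFITM10 was the least abundant of the 6 genes. It had 1.78, 2.79 and 1.95 CPM in the knockdown libraries, against 0.691, 1.37 and 1.82 CPM in the control libraries. These values rest on 17, 24 and 19 counts in knockdown and 8, 12 and 13 counts in control, and the groups overlapped. The log2 fold change of 0.83 (SE 0.325) was just inside the threshold (adjusted p = 0.0478 by edgeR). The call was lost by DESeq2 (adjusted p = 0.198), without control replicate 1 (adjusted p = 0.348 by edgeR), without control replicate 2 (adjusted p = 0.0678 by edgeR), without knockdown replicate 2 (adjusted p = 0.224 by edgeR) and without knockdown replicate 3 (adjusted p = 0.0516 by edgeR). Without control replicate 1, its log2 fold change was 0.45. Over all alternatives its adjusted p ran between 0.0243 and 1.

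IFITM1, IFITM2 and IFITM3 lie side by side on chromosome 11, which makes their unequal change a comparison within 1 locus. In GRCh38 (GENCODE v29), IFITM2 (ENSG00000185201) runs from 307631 to 315272 and IFITM1 (ENSG00000185885) from 313506 to 315272 on the plus strand, and IFITM3 (ENSG00000142089) from 319669 to 327537 on the minus strand. IFITM10 (ENSG00000244242) lies farther along the same chromosome, from 1732410 to 1750591 on the minus strand. As shares of the summed counts of IFITM1, IFITM2 and IFITM3, IFITM1 made up 24.7% ± 0.591 in knockdown and 9.91% ± 0.678 in control (SD, n = 3 each). IFITM2 made up 18.7% ± 0.552 in knockdown and 33.7% ± 0.962 in control (SD, n = 3 each). Both shares were apart between the groups, and a two-sided exact permutation test gave p = 0.1 for each, the smallest that 3 libraries against 3 allow. IFITM3 made up 56.6% ± 0.771 in knockdown and 56.4% ± 0.989 in control (SD, n = 3 each; exact permutation p = 0.9). This share within the locus does not depend on how libraries are scaled. The 3 shares depend on each other, so a changed share of a gene is not by itself a changed level of that gene.

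**Figure D3:**
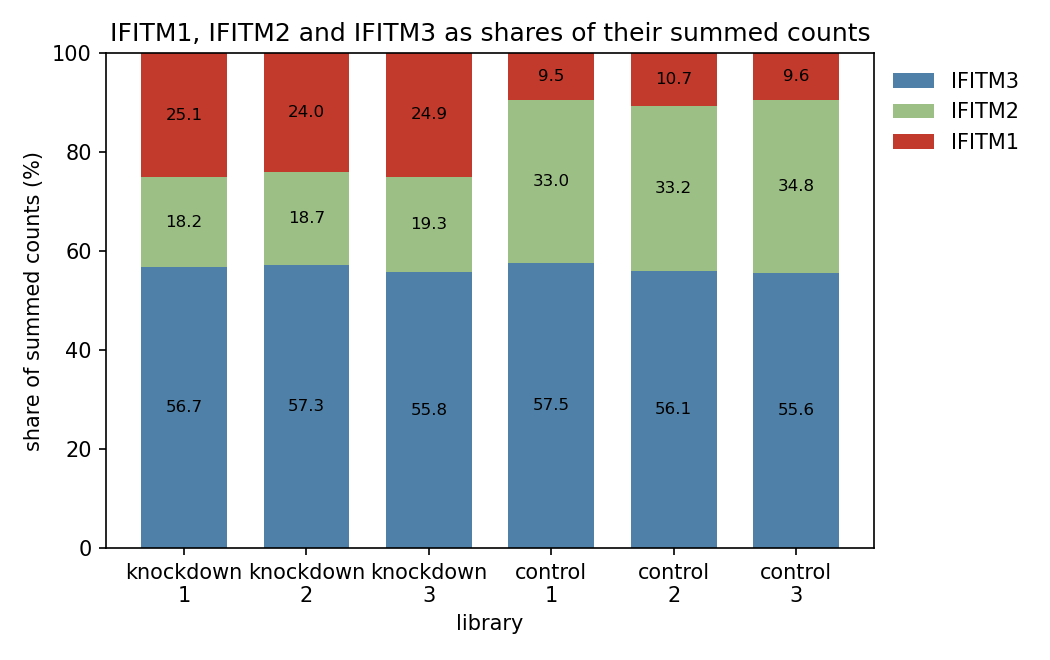
Stacked bars of the percent of the summed counts of IFITM1, IFITM2 and IFITM3 that each gene took in each library, knockdown left and control right. The bottom segment, IFITM3, lies between 55.6% and 57.5% in all 6 libraries, while IFITM1 takes 24.0% to 25.1% in knockdown and 9.5% to 10.7% in control.

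The same counts can be given as ratios within a library, which describe the same shift and add no separate support. IFITM1 over IFITM2 was 1.38, 1.28 and 1.29 in the knockdown libraries, against 0.286, 0.322 and 0.276 in the control libraries. IFITM1 thus had more counts than IFITM2 in every knockdown library and fewer in every control library. IFITM3 over IFITM2 was 3.12, 3.06 and 2.89 in knockdown, against 1.74, 1.69 and 1.60 in control. The exact permutation p was 0.1 for both ratios. Summed into 1 row, the 3 genes had 670 ± 36.5 CPM in knockdown and 401 ± 24.4 CPM in control (SD, n = 3 each), a difference of 0.75 on the log2 scale (SE 0.0502, adjusted p = 3.94e-13 by edgeR).

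How far these 3 genes can be told apart depends on the authors' counting, which the labels do not describe. Of the 50-base windows of its principal GENCODE v29 transcript, IFITM1 shared 12.2% letter for letter with the principal transcript of IFITM2 or IFITM3. The same share was 10.4% for IFITM2 and 17.9% for IFITM3. Set against every transcript of every other gene, the share was 42.3% for IFITM1, 15.8% for IFITM2 and 20.3% for IFITM3. With windows of 100 bases the shares against every transcript were 37.7% for IFITM1, 0% for IFITM2 and 5.92% for IFITM3, and that of IFITM1 against the other principal transcripts alone was 5.56%. Reads from shared stretches could be dropped or split, so the 3 levels are uncertain to that extent. In GENCODE v29, 351 exon bases belong to both IFITM1 and IFITM2. This is 32.5% of the exon bases of IFITM1 and 22.7% of those of IFITM2. The windows set against every transcript can include these bases, so those shares and this overlap should not be added together. Of the exon bases of IFITM3, 21.3% are also covered by AC136475.5 on the other strand, and 22.2% of those of IFITM10 by AC068580.4 on the same strand. IFITM10 shared 27.8% of its 50-base windows with a transcript of AC068580.4. BST2 and LY6E shared no 50-base window with a transcript of another gene.

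Levels can be compared between genes once they are divided by transcript length. In knockdown, the order of CPM per kilobase of principal transcript was IFITM3 with 470 ± 29.6, IFITM1 with 194 ± 12.3, IFITM2 with 141 ± 3.54, BST2 with 37.8 ± 4.58, LY6E with 28.4 ± 4.75 and IFITM10 with 0.587 ± 0.146 (SD, n = 3). In control, the order was IFITM3 with 280 ± 12.3, IFITM2 with 152 ± 13.2, IFITM1 with 46.5 ± 4.59, LY6E with 1.32 ± 0.129, BST2 with 0.679 ± 0.202 and IFITM10 with 0.349 ± 0.154 (SD, n = 3). IFITM1 and IFITM2 thus changed places. BST2 and LY6E changed places only after division by length, taken from the longest principal transcript. In CPM, LY6E had the higher mean in knockdown (40.3 against 38.6) and in control (1.87 against 0.692). In knockdown the libraries of BST2, at 32.6 to 40.7 CPM per kilobase, lay just above those of LY6E, at 23.1 to 32.3. In control the libraries of BST2, at 0.449 to 0.825 CPM per kilobase, overlapped those of IFITM10, at 0.186 to 0.491. The levels are given as a description, with no test between genes.

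Genes near the 6 were looked at within 50 kb. Beside BST2, the long noncoding RNA gene BISPR, known as an interferon-induced RNA transcribed away from BST2, begins 38 bases from the BST2 start on the other strand. It had 26, 19 and 27 counts in the knockdown libraries, against 1, 1 and 0 in the control libraries. BISPR rose with a log2 fold change of 4.91 (SE 0.524, adjusted p = 1.01e-08 by edgeR). MVB12A, a subunit of the ESCRT-I sorting complex, begins 74 bases from the BST2 start on the same strand as BISPR. MVB12A had a mean of 34.6 CPM in knockdown and 34.4 CPM in control, with a log2 fold change of 0.02 (adjusted p = 0.894 by edgeR). Of 4 tested neighbours of BST2, BISPR was the 1 called.

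Around IFITM1, IFITM2 and IFITM3, 2 of 13 neighbours outside the 6 genes were tested, and neither was called higher. ATHL1 (now PGGHG) was lower, with a log2 fold change of -0.29 (adjusted p = 0.0457 by edgeR), a call lost without any 1 library other than knockdown replicate 3 (adjusted p = 0.0531 to 0.223 by edgeR), and B4GALNT4, a glycosyltransferase gene, had a log2 fold change of -0.01 (adjusted p = 0.904 by edgeR). IFITM5, a member known from bone-forming cells, had 1 count in all 6 libraries together, and the pseudogene IFITM4P had none. CTSD, which encodes the lysosomal protease cathepsin D and is the 1 tested neighbour of IFITM10, rose with a log2 fold change of 0.24 (adjusted p = 0.000311 by edgeR). CTSD begins 13982 bases from the IFITM10 start, and AC068580.4, which shares exon bases with IFITM10, 13363 bases from it, on the same strand. Whether reads counted as IFITM10 came from AC068580.4 was not tested. LY6E had no tested neighbour within 50 kb.

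**Figure D4:**
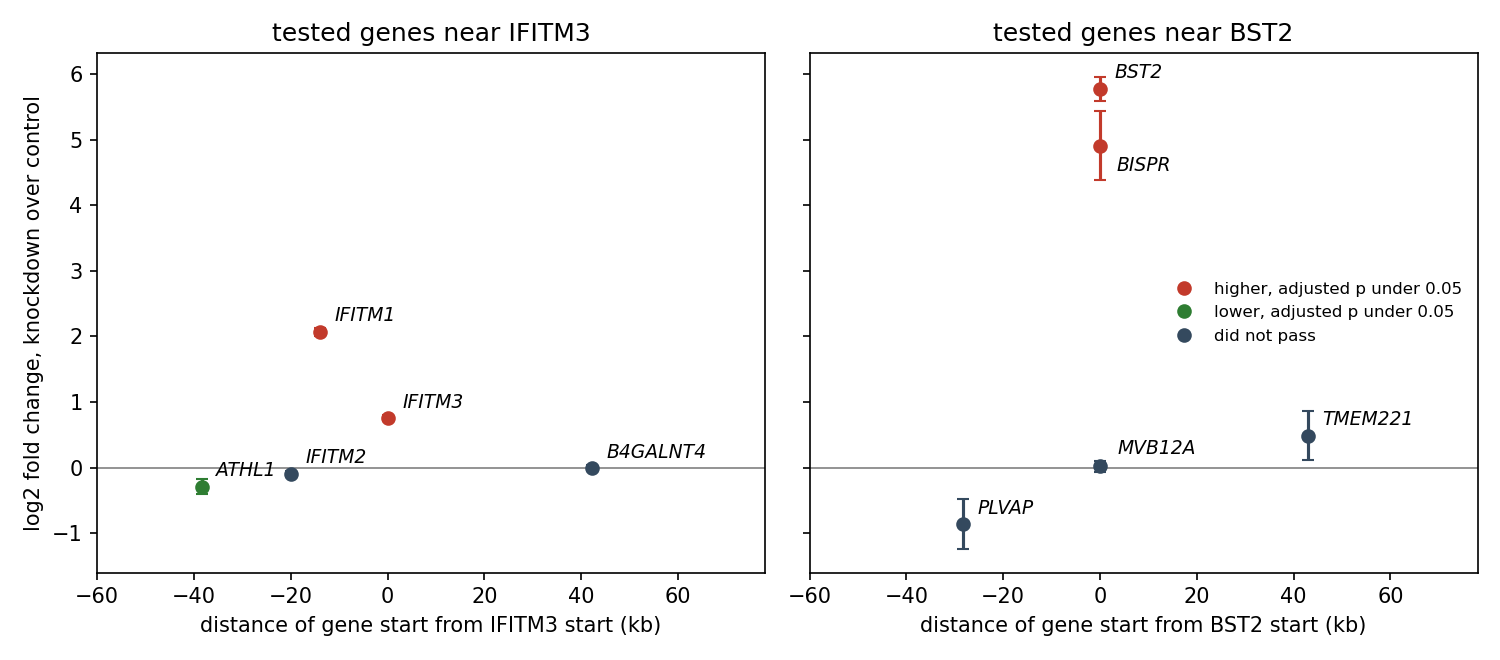
Log2 fold change with SE of the tested genes that begin within 50 kb of IFITM3 (left) or BST2 (right), against the distance between gene starts in kilobases. IFITM1 and IFITM3 are raised and IFITM2 is not, and BST2 and BISPR are raised while MVB12A, which begins beside them, lies at 0.02.

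The genes most like each of the 6 were taken as the 3 with the smallest root-mean-square difference in log2 CPM over the 6 libraries. Values were centred on the control mean, and candidates had a mean of 5 CPM or more. A small difference therefore requires a similar log2 fold change, as for IFITM1 (2.07) and its nearest genes (2.01 to 2.09). For BST2 these were OAS3 (0.172), IFIT1 (0.204) and IFI27 (0.296), and for LY6E IFI35 (0.161), TRIM14 (0.199) and IFIH1 (0.211), with the difference in log2 units given for each. For IFITM1 they were TRIM25 (0.0581), IFIT5 (0.0983) and C19orf66 (0.123). For IFITM3 they were UNC93B1 (0.0624), MAFK (0.0633) and SOCS1 (0.0708). For IFITM2, SLC25A5 (0.0227) and HMGA1 (0.0266) were nearest. The nearest genes to IFITM10, FLVCR2, SLC22A18 and FUCA1, were farther away, at 0.279 to 0.303.

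Relatives of the IFITM and LY6E proteins had smaller differences. Of 5 tested genes of the CD225 family outside the 6, 1 was higher and none was lower, with a median log2 fold change of 0.13. This is 20% higher, against 15.3% of all tested genes. The 1 was TMEM91, with 5.03, 4.77 and 4.63 CPM in the knockdown libraries, against 2.76, 2.74 and 4.48 CPM in the control libraries (log2 fold change 0.58, adjusted p = 0.0284 by edgeR). PRRT2, a neuronal family member that takes part in vesicle release, had a log2 fold change of -0.10 (adjusted p = 0.502 by edgeR) and was picked with its values known. Of 6 tested genes of the LY6/uPAR family outside LY6E, 1 was higher and 2 were lower, with a median log2 fold change of -0.19. The share higher was 16.7%, against the same 15.3%. CD59, which blocks the complement attack complex, rose to 168 ± 1.86 CPM in knockdown, against 155 ± 3.75 CPM in control (SD, n = 3 each; log2 fold change 0.12, adjusted p = 0.0268 by edgeR). LYPD1 fell to between 17.1 and 20.2 CPM in the knockdown libraries, against 23.7 to 25.1 CPM in the control libraries (log2 fold change -0.38, adjusted p = 0.0018 by edgeR), and LYPD6 also fell (log2 fold change -0.26, adjusted p = 0.0449 by edgeR). The calls of TMEM91, CD59 and LYPD6 were lost without knockdown replicate 1 (adjusted p = 0.0797, 0.0799 and 0.155 by edgeR), without knockdown replicate 2 (0.0607, 0.0742 and 0.0531) and without control replicate 1 (0.164, 0.0615 and 0.19). That of TMEM91 was also lost without control replicate 2 (0.112), that of CD59 without control replicate 3 (0.0667), and that of LYPD6 without knockdown replicate 3 (0.0873) or control replicate 2 (0.0775). All 3 were lost by DESeq2 (adjusted p = 0.145, 0.0763 and 0.181).

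Other restriction factors that act at membranes were higher in part. Of 12 tested genes on that list, 7 rose, none fell and 5 stayed short of the threshold. The share that rose was 58.3%, against 15.3% of all tested genes. The median log2 fold change of the list was 0.24. LGALS3BP, a secreted glycoprotein known to limit HIV infectivity, had 63.5, 55.7 and 63.1 CPM in the knockdown libraries, against 8.37, 8.80 and 7.57 CPM in the control libraries. The groups did not overlap, and the log2 fold change was 2.87 (SE 0.0899, adjusted p = 4.76e-22 by edgeR). PLSCR1, a phospholipid scramblase, had 166, 142 and 153 CPM in knockdown against 50.6, 45.3 and 46.1 CPM in control (log2 fold change 1.69, adjusted p = 4.67e-21 by edgeR). RSAD2, which encodes viperin, had 25, 14 and 26 counts in knockdown against 8, 5 and 0 in control (log2 fold change 2.27, adjusted p = 8.27e-05 by edgeR). CNP, known in myelin and as an inhibitor of HIV assembly, rose by a small factor (log2 fold change 0.29, adjusted p = 5.55e-06 by edgeR). ZMPSTE24, a membrane protease that acts with IFITM proteins, and SERINC5, which lowers HIV infectivity, did not pass, with log2 fold changes of -0.04 (adjusted p = 0.509 by edgeR) and 0.03 (adjusted p = 0.724 by edgeR), and were picked with their values known.

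Among 27 tested restriction factors that act inside the cell, 21 rose, 1 fell and 5 stayed short of the threshold. The share that rose was 77.8%, against 15.3% of all tested genes. Their median log2 fold change was 2.09. By the smallest adjusted p, the list was led by MX1, OAS3, IFIT1 and OAS1, with log2 fold changes of 6.58, 5.57, 5.31 and 9.17. The control value of OAS1 rested on 5 counts over 3 libraries. APOBEC3C, a cytidine deaminase, was the 1 that fell (log2 fold change -0.59, adjusted p = 1.67e-05 by edgeR) and was picked with its values known. IFITM3, IFITM10 and IFITM2 lay below the median of this list and BST2 and LY6E above it, with IFITM1 at 2.07 beside it.

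**Figure D5:**
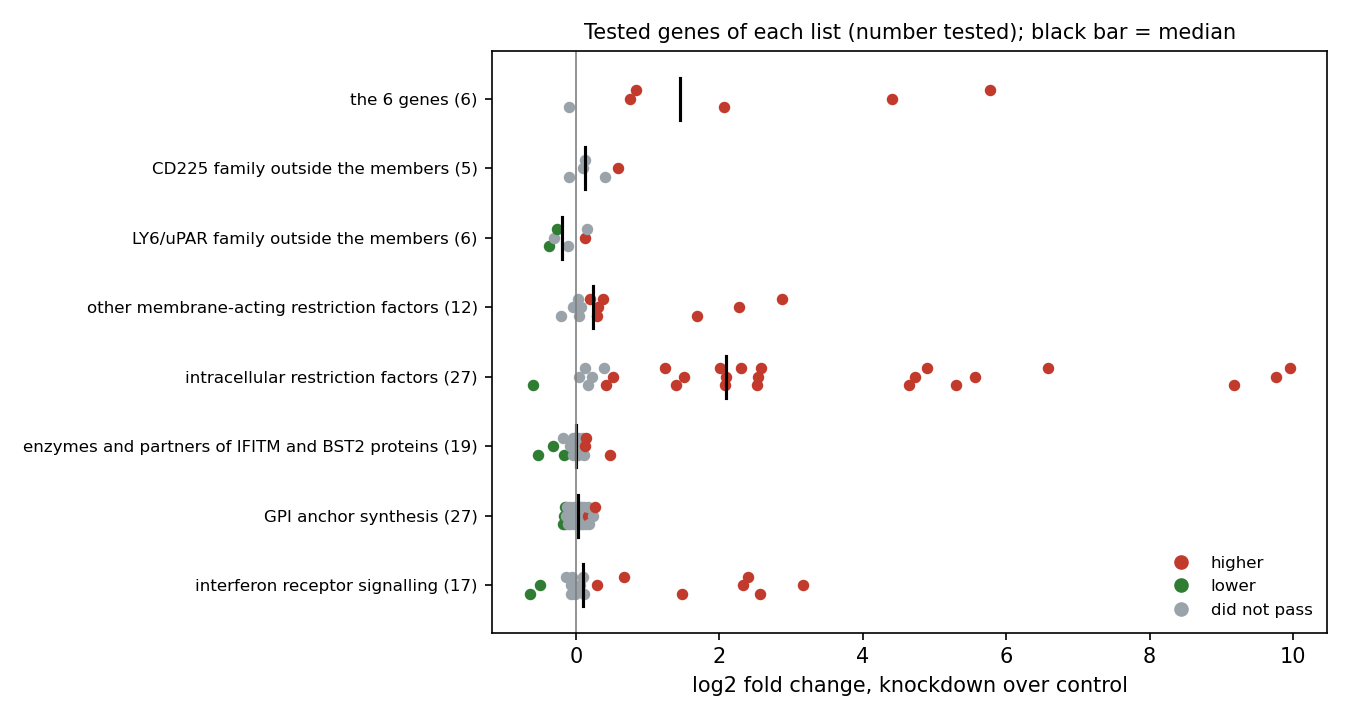
Log2 fold change of every tested gene of each list, 1 point per gene, with a black bar at each list's median and the number of tested genes in brackets. The 6 genes and the 2 restriction factor lists reach far to the right, while the CD225, LY6/uPAR, partner and GPI anchor lists stay within 0.6 of 0. OASL, at the far right among intracellular factors, had no counts in control, so its fitted value depends on the prior count.

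The enzymes and partners that handle these proteins showed small differences in both directions. Of 19 tested genes, 3 rose, 3 fell and 13 stayed short of the threshold. The share that rose, 15.8%, was near the 15.3% of all tested genes. Their median log2 fold change was 0.00. NEDD4, a ubiquitin ligase known to mark IFITM3 for degradation, fell to 46.3 ± 6.73 CPM in knockdown, against 66.5 ± 2.55 CPM in control (SD, n = 3 each; log2 fold change -0.53, adjusted p = 7.37e-07 by edgeR). MAP3K7, a kinase in the signalling pathway from BST2 to NF-kB, fell with a log2 fold change of -0.31 (adjusted p = 1.43e-06 by edgeR), and AP2A1, a subunit of the clathrin adaptor AP-2, with one of -0.16 (adjusted p = 0.00865 by edgeR). ZDHHC1, a palmitoyltransferase, rose with a log2 fold change of 0.47 (adjusted p = 0.0166 by edgeR), while its groups overlapped. The call of ZDHHC1 was lost without knockdown replicate 1 (adjusted p = 0.0648 by edgeR), knockdown replicate 3 (0.0798) or control replicate 1 (0.106), and that of AP2A1 without knockdown replicate 1 (0.0666) or control replicate 3 (0.0565). Of the partners, 3 were called without knockdown replicate 1 and 3 without control replicate 1. ZDHHC20, which adds palmitate to IFITM3, had a log2 fold change of -0.04 (adjusted p = 0.53 by edgeR), and was picked with its values known. Of 27 tested genes of GPI anchor synthesis, which BST2 and LY6E need, 2 rose, 4 fell and 21 stayed short of the threshold. The share that rose was 7.41%, against the same 15.3%, and the median log2 fold change was 0.02. The number called fell to 2 without knockdown replicate 3 and to 3 without control replicate 1. PIGK, a subunit of the enzyme that attaches the anchor, rose with a log2 fold change of 0.26 (adjusted p = 0.00238 by edgeR). GPAA1, a subunit of the same enzyme, fell with one of -0.15 (adjusted p = 0.0239 by edgeR). The call of GPAA1 was lost without knockdown replicate 3 (adjusted p = 0.0896 by edgeR), control replicate 2 (0.0686) or control replicate 3 (0.179).

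Genes on the list for interferon receptor signalling differed in part, in both directions. Whether they changed before or after the 6 genes was not tested. Of 17 tested genes of interferon receptor signalling, 7 rose, 2 fell and 8 stayed short of the threshold. The share that rose was 41.2%, against 15.3% of all tested genes. Their median log2 fold change was 0.10. IRF9, the DNA-binding subunit of the complex that reads the ISRE, rose to 92.3 ± 9.32 CPM in knockdown, against 10.3 ± 0.696 CPM in control (SD, n = 3 each; log2 fold change 3.17, adjusted p = 1.46e-23 by edgeR). The transcription factor IRF7 rose with a log2 fold change of 2.40 and the negative regulator USP18 with 2.56 (adjusted p = 3.12e-19 and 6.74e-18 by edgeR). The transcription factor STAT3 and the receptor-bound kinase TYK2 were the genes that fell, with log2 fold changes of -0.64 and -0.50 (adjusted p = 4.6e-13 and 2.16e-07 by edgeR). The receptor subunits IFNAR1 and IFNAR2 and the kinases JAK1 and JAK2 did not pass, with log2 fold changes of 0.11, 0.05, -0.02 and -0.13 (adjusted p = 0.0762, 0.716, 0.842 and 0.324 by edgeR). These 6 were picked with their values known. Of 22 interferon genes, 17 had no counts in any library and none passed the filter. The list summed to 0.419 to 0.823 CPM in knockdown and 0.0863 to 0.140 CPM in control. IFNB1, which encodes interferon beta and was picked with its values known, had 3, 4 and 5 counts in the knockdown libraries and 0 counts in each control library, which is near the floor of 3 counts.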

How the data were processed

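RNA from 3 knockdown and 3 control libraries was sequenced with a directional kit, per the labels' protocols. Trim Galore 0.6.6, STAR 2.7.10a, bedtools and the build hg38 are named in the submitters' processing notes. How reads were counted, with which strand setting and which annotation, is not given in the sources used here. Per the files, the authors deposited 1 table of read counts per library, whole numbers that were not normalised.

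Genes were filtered with filterByExpr, scaled by TMM (factors 0.9797 to 1.015) and tested with the quasi-likelihood test of edgeR 4.0.16 (R 4.3.3) over all 13632 genes kept, with no covariate and Benjamini-Hochberg adjustment. Standard errors were taken from F as the absolute log2 fold change over its root. CPM are scaled to the TMM-adjusted library size. Other analyses used DESeq2 1.42.0 and limma 3.58.1, other scalings and filters, a 1.5-fold threshold, the replicate number as a block and each library left out. The test was checked on simulated counts. Coordinates are from GENCODE v29 (GRCh38), in which 90.2% of symbols were found. Transcript windows were compared on the same strand. Floors for counts of 0 cover counting error only, while 95% intervals of log2 fold changes rest on the edgeR standard error, which holds the spread among libraries.

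The 6 genes, the lists and the tests were chosen with earlier results of these data known. Named are the 6 genes, up to 4 called genes of each list with the smallest adjusted p, symbols beginning with IFITM, genes within 50 kb, and the most similar profiles; some genes that this rule names are not reported here. Libraries of 1 group differed by a chi-square of 1.23 to 1.994 per degree of freedom, so each was counted once. Separate cultures are not mentioned for the replicates, so p-values cover only the spread among these libraries, and that spread may be technical.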

Additional observations from a re-analysis of the deposited data

How the results depend on the processing

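BST2, LY6E, IFITM1 and IFITM3 were called higher in the main analysis and in all 16 alternatives fitted to each, with log2 fold changes of 5.57 to 5.91, 4.31 to 4.53, 1.98 to 2.14 and 0.71 to 0.80. IFITM10 kept its direction, but its call was lost by DESeq2 (log2 fold change 0.80), at an adjusted p under 0.01 and against a 1.5-fold change (0.83 in both), and in 4 of the fits that left out a library (0.45 to 0.93, against 0.45 to 1.12 over all 6 such fits). IFITM2 ranged from -0.16 to -0.033 in the fits that left out a library. The cause was not tested. The IFITM3 share of the summed IFITM counts differed by 0.18 points, and by -0.21 to 0.73 points with a library left out.

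Deviations of same-numbered libraries of the 2 groups had correlations of 0.0792, 0.00548 and 0.0713, against -0.104 to 0.0387 for differently numbered libraries. These small values do not settle whether the libraries were paired. A fit with a replicate block called 5248 genes in place of 4545 and the same number of the 6 genes, 5. For the 3 IFITM shares the sign-flip test over pairs gave p of 0.25 or more, and 0.25 is the smallest it can give.

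DESeq2 called 2877 genes in all, 0 of the CD225 list, 1 of the LY6/uPAR list, 4 other membrane factors, 3 partners and 1 GPI anchor gene. At an adjusted p under 0.01 these counts were 2943, 0, 1, 5, 3 and 1. Against a 1.5-fold change they were 164, 0, 0, 3, 0 and 0, with 5 interferon signalling genes, 0 neural stem cell, 1 endothelial, 0 pluripotent and 1 fibroblast marker. With a library left out they ranged from 0 to 1 for CD225, 1 to 3 for LY6/uPAR, 3 to 5 for partners, 2 to 5 for GPI anchor genes and 3 to 5 for neural stem cell markers. With no filter, 1 interferon gene was called. With IFITM1, IFITM2 and IFITM3 merged into 1 row, a choice made after the data were seen, all 4 rows of the set were called. Depth limits IFITM10, with 33 counts in control, and the control level of BST2, with 19.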
